A study of Mus musculus with 12 samples.

Results

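The 8 genes described here, Cxcl1, Cxcl2, Cxcl3, Cxcl5, Cxcl9, Cxcl10, Cxcl11 and Cxcl16, belong to the family of secreted or membrane-bound CXC chemokines. Cxcl11 is listed as a transcribed pseudogene in the reference gene table. The 8 genes were taken by symbol from an array study of mouse dendritic cells. Such cells present antigen to T cells and were raised here from bone marrow in GM-CSF. A probe set stood for a gene when the platform annotation gave it that symbol and no other. Each of the 8 genes had 1 such probe set, and they are 8 of 22180 genes measured in this way. The genes were listed by symbol, but with earlier results of these data known, so counts among them are not those of an unselected set.

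There were 4 groups of 3 arrays: LPS-treated knockout, LPS-treated wildtype, untreated knockout and untreated wildtype cells. All cells came from mice of 8 weeks, labelled male and C57BL/6, and had been kept for 7 days with GM-CSF at 20 ng/ml. Knockout cells carried Arc/Arg3.1 -/-, the loss of an immediate early gene best known for its role at synapses, and wildtype cells carried no deletion. LPS, a bacterial cell wall lipid, was given at 100 ng/ml for 30 min, then washed off, and the cells were pelleted after another 1 h in medium; untreated cells went through the same steps with medium. Replicates are labelled biological, but the labels do not state whether each is another animal, so a p-value here measures only how these cultures vary, which may be technical in part.

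CXC chemokines guide leukocytes along gradients through G protein-coupled receptors. Members with a glutamate-leucine-arginine (ELR) stretch before the first cysteines, here Cxcl1, Cxcl2, Cxcl3 and Cxcl5, attract neutrophils through CXCR2. Cxcl9, Cxcl10 and Cxcl11 lack it, are known as interferon-induced genes and attract activated T cells and natural killer cells through CXCR3, and Cxcl16 is a membrane-anchored ligand of CXCR6. LPS signals through Toll-like receptor 4, whose MyD88 arm leads to NF-kB and whose TRIF arm leads to IRF3 and interferon beta.

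Arc itself separated the genotypes, with log2 signals between 7.68 and 8.05 on 6 knockout arrays and between 9.21 and 9.62 on 6 wildtype arrays. By mean signal the 7 measured dendritic cell markers lay above 74.6% (Flt3) to 99.9% (H2-Ab1) of genes, with Itgax above 96.6%. The 6 measured macrophage markers lay in a similar range, above 82.2% (Mertk) to 99.8% (Lyz2). The 5 measured monocyte markers lay above 72.1% (F13a1) to 96.0% (Chil3) of genes. The 10 neutrophil markers ranged more widely, above 40.3% (Camp) to 93.1% (S100a8). Several arrays stood apart. Over the 6440 genes whose mean exceeded 8 (log2), the 3 untreated wildtype arrays differed by a standard deviation of 0.105 to 0.108, against 0.193 to 0.438 for the 9 pairs within other groups. Over all genes the gap was smaller, with 0.226 to 0.232 against 0.247 to 0.435. These 3 arrays were counted as 1 sample (10 samples in the fit), and results with 12 separate samples are given where they change a call. On 3 arrays (LPS-treated knockout replicate 2, LPS-treated wildtype replicate 1 and untreated knockout replicate 2) Xist was at 5.63 to 5.76 and 3 Y-linked genes at 8.14 to 9.89, while the other 9 arrays, also labelled male, had Xist at 11.22 to 11.92 and those genes at 3.33 to 4.86. On 4 arrays (replicates 2 and 3 of both LPS groups) the median of 86 small RNA genes was 9.83 to 9.87, against 10.44 to 11.05 on the other 8. In these bulk samples fewer cells of a type and less RNA per cell cannot be told apart.

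Sequences before the annotated starts are shown first, so that the LPS responses can be read beside them. The RefSeq promoter table (GRCm38.p6) held 5 of the 8 genes: Cxcl1, Cxcl2, Cxcl3, Cxcl9 and Cxcl10. Cxcl5, Cxcl11 and Cxcl16 had no entry. The 250 bases before the start are printed 5′ to 3′ on the strand of the gene, with chr5:90890995-90891244 for Cxcl1, chr5:90903649-90903898 for Cxcl2 and chr5:90785851-90786100 for Cxcl3 on the plus strand, and chr5:92328080-92328329 for Cxcl9 and chr5:92348890-92349139 for Cxcl10 on the minus strand. Capitals mark matches to motifs that were searched on both strands.
Cxcl1: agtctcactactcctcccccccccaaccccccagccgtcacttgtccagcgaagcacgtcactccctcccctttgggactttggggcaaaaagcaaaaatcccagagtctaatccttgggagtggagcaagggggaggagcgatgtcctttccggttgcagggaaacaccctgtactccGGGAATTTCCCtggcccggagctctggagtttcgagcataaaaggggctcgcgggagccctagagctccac
Cxcl2: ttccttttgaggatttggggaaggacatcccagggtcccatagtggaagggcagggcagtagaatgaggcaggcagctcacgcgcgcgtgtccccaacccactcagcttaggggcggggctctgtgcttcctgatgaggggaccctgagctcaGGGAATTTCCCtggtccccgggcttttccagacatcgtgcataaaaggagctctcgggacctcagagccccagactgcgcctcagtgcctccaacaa
Cxcl3: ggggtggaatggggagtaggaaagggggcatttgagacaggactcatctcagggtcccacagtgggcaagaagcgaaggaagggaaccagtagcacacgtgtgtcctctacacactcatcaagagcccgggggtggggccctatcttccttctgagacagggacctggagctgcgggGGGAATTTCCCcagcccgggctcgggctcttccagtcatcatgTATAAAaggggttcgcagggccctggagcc
Cxcl9: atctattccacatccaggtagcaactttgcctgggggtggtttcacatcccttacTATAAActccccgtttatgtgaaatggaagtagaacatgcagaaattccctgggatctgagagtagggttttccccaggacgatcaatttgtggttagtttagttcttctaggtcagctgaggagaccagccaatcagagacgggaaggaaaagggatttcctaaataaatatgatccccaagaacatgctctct
Cxcl10: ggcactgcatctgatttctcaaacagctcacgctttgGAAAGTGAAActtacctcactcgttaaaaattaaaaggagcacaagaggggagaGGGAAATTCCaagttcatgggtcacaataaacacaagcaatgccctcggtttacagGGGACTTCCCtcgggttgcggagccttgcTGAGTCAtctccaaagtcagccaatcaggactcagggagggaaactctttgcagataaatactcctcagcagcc

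The motifs were the kappaB consensus bound by NF-kB, the interferon-stimulated response element (ISRE, GAAANNGAAA), the AP-1 element (TGANTCA), the interferon gamma-activated site (GAS, TTCNNNGAA) and the TATA box (TATAAA). The kappaB consensus was found in 4 of the 5 windows and in 3.899% of 32851 windows of all genes. Cxcl1, Cxcl2 and Cxcl3 each held the same run of 11 letters, GGGAATTTCCC, at 71 to 61, 97 to 87 and 73 to 63 bases before the start, in which a match on the plus strand overlaps one on the minus strand. This run, picked after the sequences were seen, stood in 14 windows (0.0426%). Of the 11 other genes with it, 6 were measured and 0 of these passed the threshold in either LPS response by limma, with log2 differences between -0.40 (Zfp84) and 0.14 (Lyzl4) in knockout cells. Among all 22180 genes 1311 passed in knockout and 349 in wildtype cells. A count of 0 of 6 is near those shares and says little about genes with the run.

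Cxcl10 held the most varied set: kappaB matches at 159 to 150 and 103 to 94 bases before the start, an ISRE match at 213 to 204 and an AP-1 match at 74 to 68. Among all windows, ISRE was found in 2.977% and AP-1 in 6.749%. Cxcl9, separated from Cxcl10 by Art3 in the gene order, held none of these and only a TATA match at 195 to 190. TATA was found in 12.368% of all windows and also lay at 30 to 25 before the start of Cxcl3, while GAS was in none of the 5 windows and in 7.02% of all. A match is a description of letters, and no binding was measured here.

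**Figure D1:**
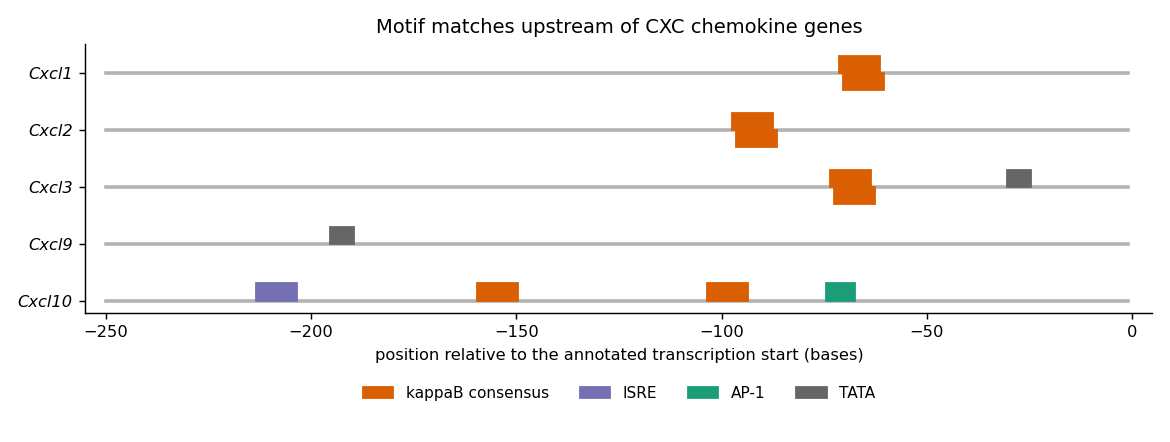
Position of motif matches in the 250 bases before the annotated start of 5 CXC chemokine genes. The horizontal axis gives bases relative to the start, boxes above the line are matches on the strand of the gene and boxes below it on the other strand. The overlapping kappaB matches of Cxcl1, Cxcl2 and Cxcl3 lie between 97 and 61 bases before the start, and Cxcl10 has matches of 3 kinds.

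The first comparison set LPS-treated against untreated cells in each genotype. Of the 8 genes, 5 rose in both genotypes: Cxcl1, Cxcl2, Cxcl3, Cxcl9 and Cxcl10. For these 5, every LPS-treated array lay above every untreated array of the same genotype. The share of all genes separated in this way was not counted. Cxcl5, Cxcl11 and Cxcl16 did not pass the threshold, an adjusted p under 0.05 from limma with Benjamini-Hochberg adjustment over all 22180 genes. Among all genes, 2.98% passed as higher in LPS-treated knockout cells and 1.34% in LPS-treated wildtype cells, against 5 of 8 here. With 12 separate samples 872 of all genes passed as higher and 1149 as lower in knockout cells. In wildtype cells these numbers were 1195 and 722. In a fit blocked by replicate number, 2312 genes passed in either direction in knockout cells in place of 1311, and 665 in place of 349 in wildtype cells, and the same count of 5 of the 8 chemokine genes passed in each.

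**Figure D2:**
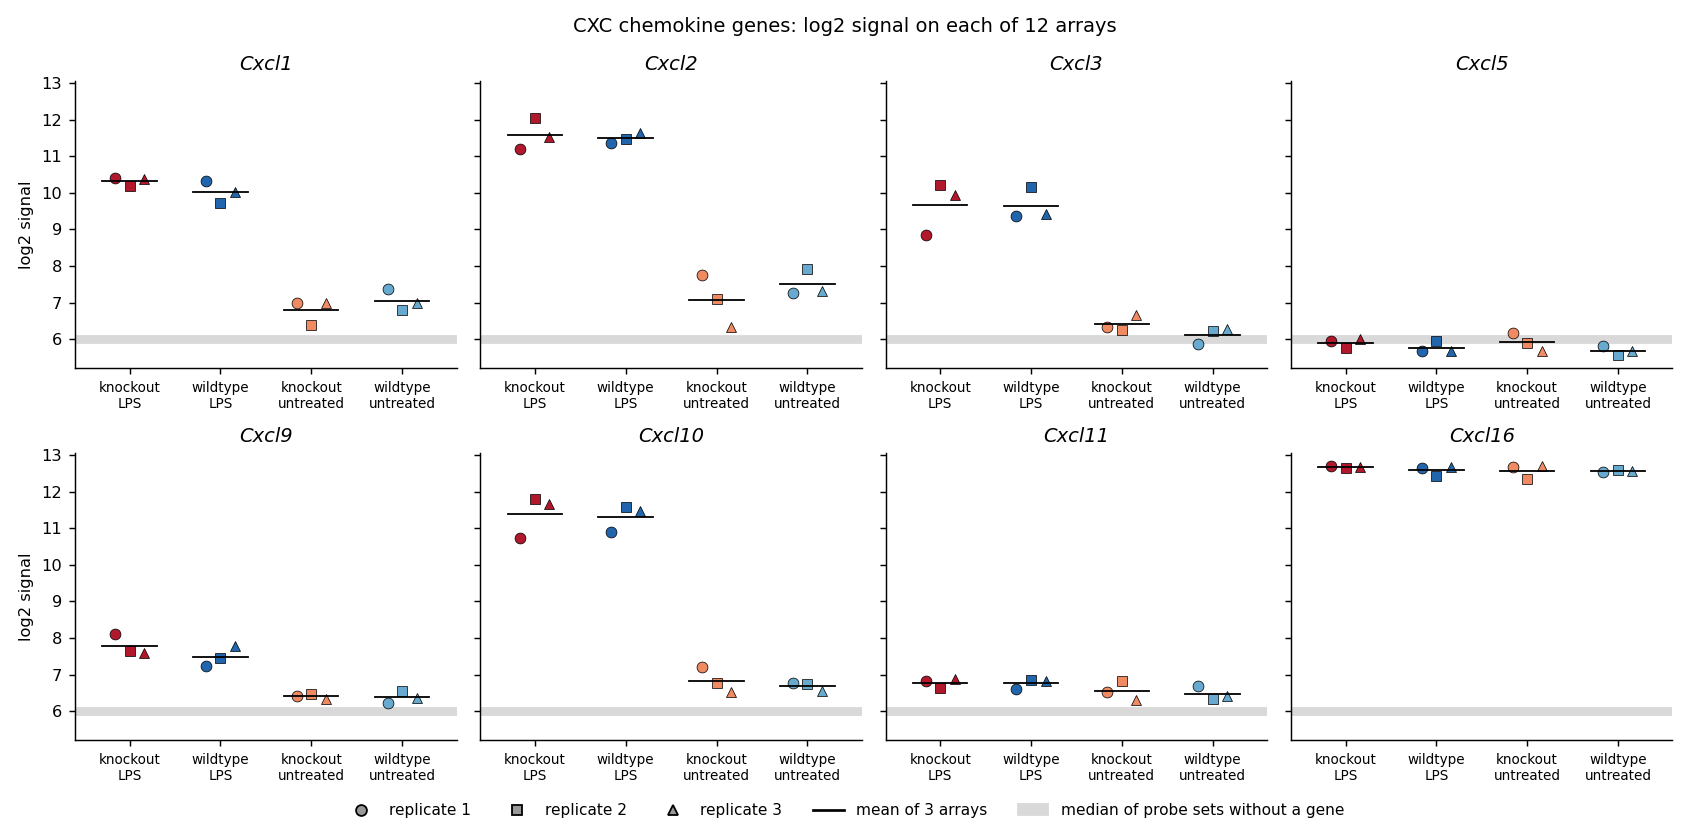
Log2 signal of the 8 CXC chemokine genes on each of 12 arrays, by group, with the mean of 3 arrays as a black line and the replicate number as the symbol. The grey band spans the array medians of probe sets that carry no gene (5.89 to 6.10). Cxcl1, Cxcl2, Cxcl3, Cxcl9 and Cxcl10 are separated by LPS in both genotypes, Cxcl5 lies in or near the band, and Cxcl16 stays between 12.35 and 12.70 throughout.

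Among the ELR members, Cxcl1 encodes a major neutrophil attractant of the mouse, also called KC. Its log2 signal was 10.39, 10.19 and 10.39 in LPS-treated knockout cells and 10.32, 9.73 and 10.03 in LPS-treated wildtype cells. It was 6.99, 6.39 and 6.99 in untreated knockout cells and 7.37, 6.79 and 6.98 in untreated wildtype cells. The LPS arrays thus lay more than 2 log2 units above the untreated ones, with no overlap, and those of the genotypes overlapped. In knockout cells the difference was 3.53 ± 0.19 (SE; 95% interval 3.12 to 3.95; limma adjusted p = 3.45e-06), an 11.6-fold ratio of signals and the 15th largest increase of all genes. In wildtype cells it was 2.98 ± 0.26 (interval 2.39 to 3.56; adjusted p = 0.000345), or 7.89-fold and the 22nd largest. Of the untreated arrays, 2 of 3 knockout and 1 of 3 wildtype arrays exceeded the 75th percentile of probe sets without a gene.

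Cxcl2 encodes MIP-2, the other well-studied mouse ligand of CXCR2. It had log2 signals of 11.19, 12.03 and 11.52 in LPS-treated knockout cells and 11.35, 11.48 and 11.64 in LPS-treated wildtype cells, against 7.75, 7.10 and 6.34 in untreated knockout cells and 7.27, 7.91 and 7.31 in untreated wildtype cells. Untreated knockout arrays were the most spread (SD 0.705), and still lay below all LPS arrays. The difference was 4.52 ± 0.31 in knockout cells (interval 3.84 to 5.20; 22.9-fold; adjusted p = 1.71e-05) and 3.995 ± 0.44 in wildtype cells (interval 3.03 to 4.96; 15.9-fold; adjusted p = 0.00121). Without the 4 arrays of low small RNA signal, which leaves 1 array in each LPS group and 2 residual degrees of freedom, it was 4.13 (adjusted p = 0.0184) in knockout and 3.85 (adjusted p = 0.0763) in wildtype cells.

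Cxcl3, a further neutrophil attractant of the same family, had log2 signals of 8.85, 10.23 and 9.94 in LPS-treated knockout cells and 9.36, 10.16 and 9.41 in LPS-treated wildtype cells. Untreated knockout cells had 6.34, 6.26 and 6.67 and untreated wildtype cells 5.87, 6.22 and 6.27. Replicate 1 was the lowest LPS array of each genotype, and LPS-treated knockout arrays spanned more than 1 log2 unit. The difference was 3.25 ± 0.32 in knockout cells (interval 2.53 to 3.96; 9.51-fold; adjusted p = 0.000258) and 3.52 ± 0.46 in wildtype cells (interval 2.51 to 4.54; 11.5-fold; adjusted p = 0.00374). No untreated array exceeded the 75th percentile of probe sets without a gene, so these folds are ratios of signals against a level near background. Without the 4 arrays of low small RNA signal the log2 differences were 2.43 in knockout and 3.24 in wildtype cells.

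Cxcl5, whose protein LIX attracts neutrophils and is mostly known from epithelium and stroma, was at background. Its log2 signal lay between 5.77 and 6.02 in LPS-treated knockout, 5.67 and 5.95 in LPS-treated wildtype, 5.68 and 6.18 in untreated knockout and 5.56 and 5.82 in untreated wildtype cells. On all but 1 of the 12 arrays it was under the median of the probe sets that carry no gene, and all groups overlapped. The difference with LPS was -0.01 (interval -0.33 to 0.31) in knockout cells and 0.08 (interval -0.37 to 0.53) in wildtype cells.

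The 4 ELR genes share a chromosomal cluster on chromosome 5, in the order Cxcl5, Ppbp, Pf4, Cxcl3, Cxcl15, Cxcl1, Cxcl2 in the reference gene table. The genes lying among them did not pass the threshold. Ppbp and Pf4, which encode platelet chemokines, had LPS differences of -0.03 ± 0.44 and -0.26 ± 0.19 in knockout cells and 0.91 ± 0.63 and 0.03 ± 0.26 in wildtype cells (SE; adjusted p from 0.483 to 0.995). Cxcl15, a chemokine known from lung epithelium, had -0.06 ± 0.16 and -0.06 ± 0.23. The genes that rose were thus Cxcl3, Cxcl1 and Cxcl2, and the gene between Cxcl3 and Cxcl1 in this order did not pass. Whether probes of these related genes pick up each other's transcripts was not tested.

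**Figure D3:**
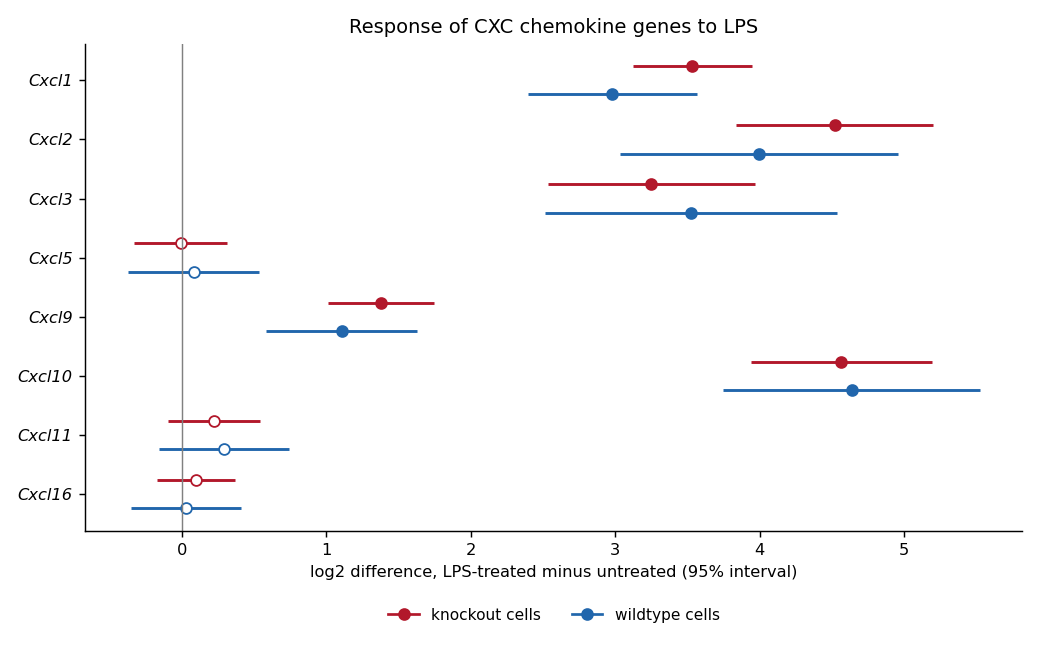
LPS response of the 8 CXC chemokine genes as the log2 difference of LPS-treated minus untreated cells, with 95% intervals, in knockout (red) and wildtype (blue) cells. Filled points passed the threshold and open points did not. The intervals of Cxcl1, Cxcl2, Cxcl3, Cxcl9 and Cxcl10 lie above 0 in both genotypes, and those of Cxcl5, Cxcl11 and Cxcl16 include it.

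Of the CXCR3 ligands, Cxcl10, also called IP-10, had the largest LPS difference. It had log2 signals of 10.75, 11.80 and 11.65 in LPS-treated knockout cells and 10.89, 11.59 and 11.47 in LPS-treated wildtype cells, against 7.20, 6.78 and 6.53 in untreated knockout cells and 6.76, 6.73 and 6.55 in untreated wildtype cells. The LPS arrays of both genotypes lay more than 3 log2 units above all untreated arrays, with replicate 1 the lowest in each. The difference was 4.57 ± 0.28 in knockout cells (interval 3.94 to 5.19; 23.7-fold; adjusted p = 9.42e-06) and 4.64 ± 0.40 in wildtype cells (interval 3.75 to 5.53; 24.9-fold; adjusted p = 0.000319). By size of the log2 difference these were the 2nd and the 4th largest increases of all genes in their comparisons. Of the untreated arrays, 1 of 3 knockout and 0 of 3 wildtype arrays exceeded the 75th percentile of probe sets without a gene, so here too folds and ranks are set against a level near background. Without the 4 arrays of low small RNA signal the log2 differences were 3.91 in knockout and 4.21 in wildtype cells.

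Cxcl9, also called Mig and best known as a target of interferon gamma, had a smaller one. It had log2 signals of 8.11, 7.66 and 7.58 in LPS-treated knockout cells and 7.24, 7.45 and 7.77 in LPS-treated wildtype cells. Untreated knockout cells had 6.41, 6.48 and 6.33 and untreated wildtype cells 6.22, 6.56 and 6.37. LPS arrays lay above untreated ones without overlap, and only they exceeded the 75th percentile of probe sets without a gene. The difference was 1.38 ± 0.17 in knockout cells (interval 1.01 to 1.74; 2.60-fold; adjusted p = 0.000823). In wildtype cells it was 1.10 ± 0.24 (interval 0.58 to 1.63; 2.15-fold), with an adjusted p of 0.0478 in the 10 samples and 0.000785 with 12 separate samples. It passed in 11 of 24 other settings; among those where it did not were the fits without LPS-treated wildtype replicate 3 (0.96, adjusted p = 0.117) and without the low small RNA arrays (0.85, adjusted p = 0.152).

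Cxcl11 is listed as a transcribed pseudogene in the reference gene table, which follows the C57BL/6J strain. Its log2 signal lay between 6.63 and 6.89 in LPS-treated knockout, 6.61 and 6.86 in LPS-treated wildtype, 6.32 and 6.84 in untreated knockout and 6.33 and 6.69 in untreated wildtype cells. It never exceeded the 75th percentile of probe sets without a gene, and LPS and untreated arrays overlapped. The difference was 0.22 (interval -0.10 to 0.54) in knockout cells and 0.29 (interval -0.16 to 0.74) in wildtype cells. In the reference order Cxcl9, Art3, Cxcl10 and Cxcl11 follow each other, and Art3, an ADP-ribosyltransferase family gene, had 0.13 ± 0.14 and 0.01 ± 0.20 in knockout and wildtype cells (SE; adjusted p = 0.657 and 0.997).

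Cxcl16, on chromosome 11, was bright in every group. Its protein is a transmembrane chemokine that also binds oxidised lipoprotein. Its log2 signal lay between 12.65 and 12.69 in LPS-treated knockout, 12.43 and 12.68 in LPS-treated wildtype, 12.35 and 12.70 in untreated knockout and 12.53 and 12.58 in untreated wildtype cells. It exceeded the 95th percentile of probe sets without a gene on all 12 arrays, and LPS-treated and untreated arrays of the same genotype overlapped. The LPS difference was 0.10 ± 0.12 (interval -0.17 to 0.37) in knockout cells and 0.03 ± 0.17 (interval -0.35 to 0.41) in wildtype cells.

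Cxcl2, Cxcl3 and Cxcl10 had their lowest LPS array in replicate 1 in both genotypes, and Cxcl1 its highest. Replicate 1 is the LPS array with the higher small RNA signal in each genotype, and residuals of arrays with the same number were correlated between the LPS groups (0.338, 0.358 and 0.228 over genes). A term for the low small RNA arrays left all 5 genes past the threshold in knockout cells, with log2 differences of 3.72 for Cxcl1, 4.25 for Cxcl2, 2.69 for Cxcl3, 1.41 for Cxcl9 and 4.02 for Cxcl10. In wildtype cells 4 remained, with Cxcl9 at 1.14 (adjusted p = 0.0934). Without the 3 arrays with Y-linked signal, all 5 passed in both genotypes, with differences of 1.48 to 4.34 in knockout and 1.23 to 4.85 in wildtype cells.

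The second comparison set knockout against wildtype cells. After LPS, 0 of 8 CXC chemokine genes passed the threshold in limma, and 0 also at an unadjusted p under 0.05 in the fit without a block. The arrays of the genotypes overlapped for each of the 8, and the share of all genes with such overlap was not counted. Of all 22180 genes, 0.00902% passed, which is 2 genes, and 877 were under 0.05 unadjusted in that fit. The largest differences were 0.30 ± 0.19 for Cxcl1 (SE; interval -0.11 to 0.71) and 0.30 ± 0.17 for Cxcl9 (interval -0.07 to 0.66), and the smallest was 0.01 for Cxcl11 (adjusted p = 0.999 for all 8). For Cxcl2 it was 0.09 (interval -0.59 to 0.77), for Cxcl3 0.03 (interval -0.69 to 0.75) and for Cxcl10 0.08 (interval -0.54 to 0.71). The replicate number was then added as a block, since residuals of these LPS arrays were correlated by number. Cxcl1 alone of the chemokine genes then fell under 0.05 before adjustment (0.30 ± 0.12, limma adjusted p = 0.807). So did 1316 of all 22180 genes in that fit. The Cxcl1 signal was higher in knockout cells in 3 of 3 pairs of the same number, by 0.08, 0.46 and 0.36. Over these 5 genes, without the block, the upper ends of the intervals lay between 0.66 and 0.77 log2 units.

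Without LPS, 0 of 8 passed as well, against 0.00451% of all genes, which is 1 gene. At an unadjusted p under 0.05 in limma there were 0 of 8, against 897 of 22180 genes. Cxcl2 was lower by 0.43 log2 units in untreated knockout cells (-0.43 ± 0.44; interval -1.40 to 0.53) and Cxcl1 by 0.25 (-0.25 ± 0.26; interval -0.84 to 0.33), while Cxcl3 was higher by 0.30 ± 0.46 (interval -0.71 to 1.32). Cxcl5 had 0.23 ± 0.21, Cxcl10 0.15 ± 0.40, Cxcl11 0.08 ± 0.20, Cxcl9 0.02 ± 0.24 and Cxcl16 0.01 ± 0.17. Groups overlapped for each of the 8 genes (share of all genes not counted), and limma adjusted p lay between 0.970 and 0.990. Arc, the deleted gene, had -1.48 ± 0.20 here and did not pass (limma adjusted p = 0.177). A difference of that size can thus go uncalled in the fit that counts the 3 untreated wildtype arrays as 1 sample. Whether Arc passes with these arrays as separate samples is not reported here. After LPS Arc had -1.50 ± 0.14 and passed (limma adjusted p = 0.00591). With the 3 untreated wildtype arrays as separate samples, 97 of all genes passed, and again 0 of these 8, with adjusted p of at least 0.428.

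The third comparison asked whether the LPS response differed between genotypes, as the response in knockout cells minus that in wildtype cells. No gene passed over the whole array (0% of 22180 genes by limma, with 982 at an unadjusted p under 0.05), and 0 of the 8 chemokine genes was under 0.05 unadjusted in the fit without a block. Cxcl1 had the largest difference of responses, 0.55 ± 0.32 (SE; interval -0.16 to 1.27; unadjusted p = 0.116, adjusted p = 0.948), and Cxcl2 had 0.52 ± 0.53 (interval -0.66 to 1.70). Cxcl9 had 0.27 ± 0.29, Cxcl3 -0.27 ± 0.56 and Cxcl10 -0.07 ± 0.49. In the blocked fit Cxcl1 alone of the chemokine genes fell under 0.05 before adjustment (0.55 ± 0.20, limma adjusted p = 0.655). So did 1421 of all 22180 genes. Residual correlations with untreated wildtype arrays of the same number did not all exceed 0.1. With 12 separate samples 55 genes passed and with the replicate block 9, and 0 of the 8 chemokine genes was among either. Both LPS responses and both genotype comparisons share arrays, so their values are not independent.

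**Figure D4:**
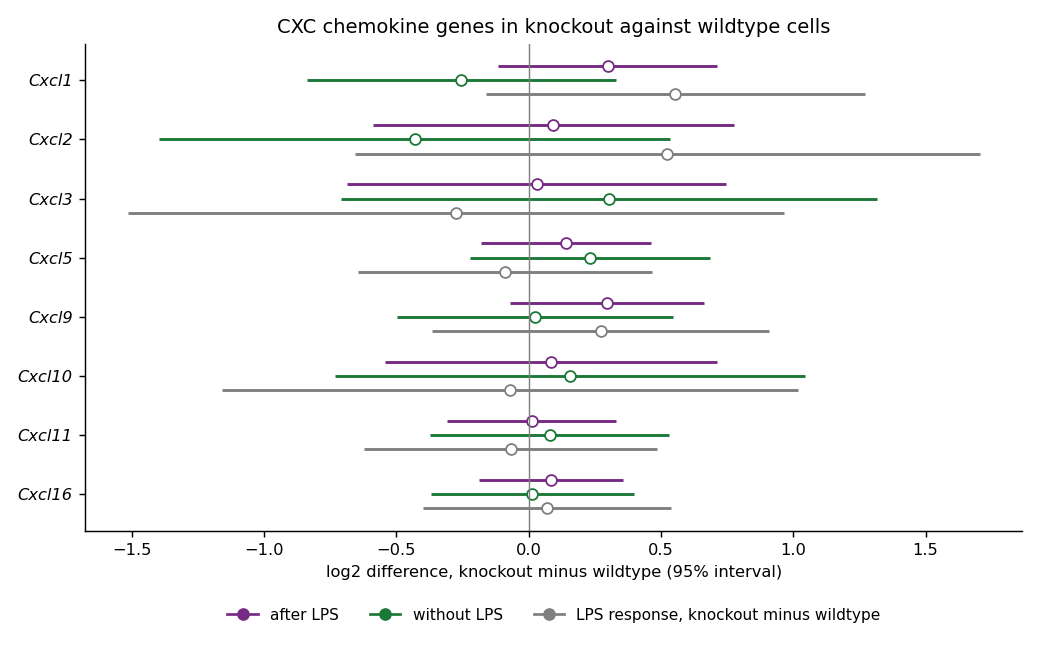
Knockout minus wildtype log2 differences of the 8 CXC chemokine genes with 95% intervals, after LPS (purple), without LPS (green) and for the LPS response itself (grey), in the fit without a replicate block. All 24 intervals include 0, and the widest are those of Cxcl2 and Cxcl3.

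Other CXC chemokine genes stayed below the threshold. Of 7 measured, 0 rose and 0 fell in either genotype, with medians of -0.03 in knockout and -0.07 in wildtype cells, against -0.0037 and -0.0053 over all genes. Pf4 had the smallest p in knockout cells, followed by Cxcl12 at 0.07 ± 0.12 (SE; adjusted p = 0.797), the homeostatic ligand of CXCR4. In wildtype cells Cxcl13, a B cell attractant, had -0.31 ± 0.16 (adjusted p = 0.620) and Cxcl17, known from mucosa, -0.21 ± 0.14 (adjusted p = 0.771).

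Receptors of these chemokines did not pass either, with 0 of 8 called in each genotype, against the same shares of all genes. Cxcr2, the receptor of the ELR ligands, had -0.65 ± 0.19 in knockout cells (adjusted p = 0.0694) and -0.96 ± 0.26 in wildtype cells (adjusted p = 0.135). With 12 separate samples these adjusted p were 0.0316 and 0.00329, both under the threshold. Ackr3, a scavenging receptor, had 0.43 ± 0.12 in knockout cells (adjusted p = 0.0701, and 0.0382 with 12 separate samples), and Cxcr6, the receptor of Cxcl16, had -0.17 ± 0.18 in wildtype cells (adjusted p = 0.932). The list's medians were 0.06 and -0.02.

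Of 6 proteases that trim or shed CXC chemokines, Mmp8, the neutrophil collagenase, fell in knockout cells by 0.98 on the log2 scale (-0.98 ± 0.24; adjusted p = 0.0411), and none rose. Among all genes 2.93% passed as lower there and 0.234% in wildtype cells. In wildtype cells 0 of the 6 passed, with Mmp8 at -1.01 ± 0.34 (adjusted p = 0.267, and 0.0128 with 12 separate samples). Adam10, which releases Cxcl16 from the membrane, had -0.26 ± 0.18 in wildtype cells (adjusted p = 0.794). Counted as 12 separate samples, 2 fell in knockout and 1 in wildtype cells, against 1149 and 722 of 22180 genes. Medians were -0.33 and -0.24.

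NF-kB genes had the highest median LPS difference of the lists of related genes. Of 12 listed genes 11 were measured, and 6 rose and 0 fell in each genotype, against 2.98% of all genes higher in knockout and 1.34% in wildtype cells. With 12 separate samples 8 rose in knockout and 9 in wildtype cells, against 872 and 1195 of 22180 genes. The median LPS difference was 0.68 in knockout and 0.71 in wildtype cells. Nfkbiz, which encodes the inducible nuclear protein IkappaB-zeta, had 4.06 ± 0.17 in knockout and 3.98 ± 0.24 in wildtype cells (SE; adjusted p = 9.94e-07 and 4.45e-05). Nfkbid, for a related nuclear inhibitor, had 2.11 ± 0.16 and 2.24 ± 0.23, and Tnfaip3, for the deubiquitinase A20 that dampens the pathway, had 2.06 ± 0.13 and 1.94 ± 0.19. Nfkbia, the cytoplasmic inhibitor IkappaB-alpha, had 0.95 ± 0.10 and 1.00 ± 0.14, and Nfkbie had 0.91 ± 0.11 and 1.13 ± 0.16.

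Of 15 genes on the interferon axis that acts on CXCR3 ligands, 14 were measured, and 5 rose in knockout and 4 in wildtype cells, with none lower, against the same 2.98% and 1.34% of all genes. The number that rose was 5 in each genotype with 12 separate samples, against 872 of 22180 genes in knockout and 1195 in wildtype cells. The list's median stayed near 0 (0.02 and 0.12). Ifnb1, for interferon beta, had 2.44 ± 0.15 in knockout and 2.22 ± 0.21 in wildtype cells (SE; adjusted p = 8.77e-06 and 0.000458). The interferon-stimulated genes Isg15 and Ifit1 had 2.80 ± 0.15 and 2.88 ± 0.16 in knockout cells and 2.97 ± 0.21 and 2.48 ± 0.22 in wildtype cells. Irf1, a transcription factor of this axis, had 1.20 ± 0.16 and 1.13 ± 0.22. Tbk1, the kinase of IRF3, rose by 0.72 ± 0.12 in knockout cells (adjusted p = 0.00504) and had 0.77 ± 0.17 in wildtype cells (adjusted p = 0.0514).

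Genes acting on the decay of chemokine mRNA were measured for all 9 listed. Zc3h12a, for the endonuclease Regnase-1, rose in both genotypes (1.42 ± 0.12 in knockout and 1.53 ± 0.17 in wildtype cells; SE; adjusted p = 9.61e-05 and 0.00151). Zfp36, for tristetraprolin, which binds AU-rich elements, rose in knockout cells by 0.59 ± 0.12 (adjusted p = 0.0168) and had 0.66 ± 0.17 in wildtype cells (adjusted p = 0.103). The other 7 genes did not pass in either genotype, and medians were 0.08 and 0.18. Thus 2 of 9 rose in knockout and 1 of 9 in wildtype cells, against 2.98% and 1.34% of all genes. With 12 separate samples 2 rose and 1 fell in knockout cells, against 872 and 1149 of 22180 genes. In wildtype cells 4 then rose, against 1195 of all genes. In the comparisons of genotype and of responses, 0 genes of any of these lists passed.

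**Figure D5:**
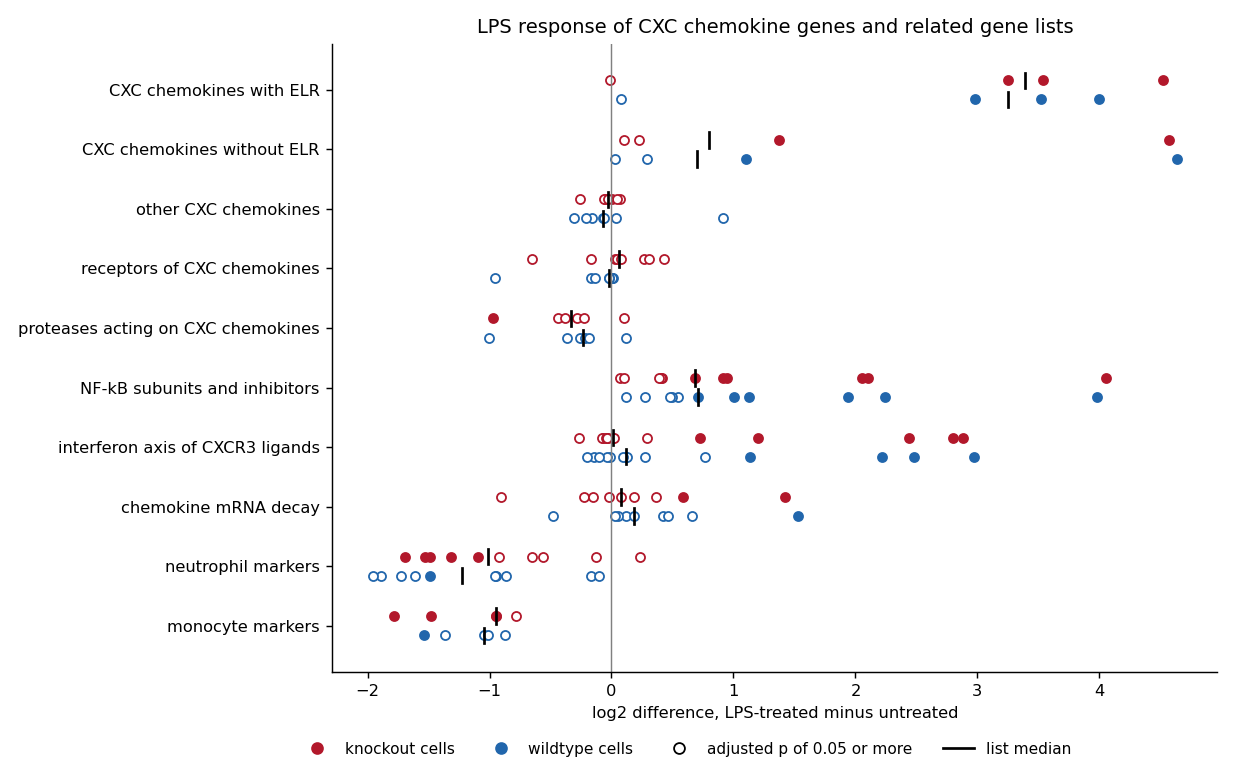
LPS response as log2 difference of LPS-treated minus untreated cells for each measured gene of the CXC chemokine lists, related gene lists and the neutrophil and monocyte markers, in knockout (red) and wildtype (blue) cells. Filled points passed the threshold, open points did not, and vertical lines are list medians. Filled points to the right are found among the chemokines with and without ELR, NF-kB genes, the interferon axis and mRNA decay, and medians of the marker lists lie between -1.22 and -0.95.

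Markers of other cells moved with LPS beside the chemokines. Of 10 neutrophil markers, 5 were lower in LPS-treated knockout cells (Camp, S100a8, Ltf, S100a9 and Ngp) and 1 in LPS-treated wildtype cells (Camp), against 2.93% and 0.234% of all genes. With 12 separate samples 7 were lower in each genotype, against 1149 of 22180 genes in knockout and 722 in wildtype cells. The medians of the markers were -1.01 in knockout and -1.22 in wildtype cells. Cxcr2 is also on this list. Their summed signal on the log2 scale was 11.09 to 11.66 in LPS-treated knockout and 11.02 to 11.89 in LPS-treated wildtype cells, against 12.33 to 12.89 in untreated knockout and 12.79 to 12.83 in untreated wildtype cells. Of 5 monocyte markers, 3 were lower in knockout (Ccr2, Chil3 and Ms4a6c) and 1 in wildtype cells (Ccr2), or 3 and 4 with 12 separate samples. Their sum was 10.91 to 11.42 in LPS-treated knockout and 11.13 to 11.61 in LPS-treated wildtype cells, against 12.58 to 12.65 in untreated knockout and 12.69 to 12.78 in untreated wildtype cells. The sum of 7 dendritic cell markers was 14.48 to 14.62 in LPS-treated knockout and 14.51 to 14.59 in LPS-treated wildtype cells, against 14.44 to 14.54 in untreated knockout and 14.44 to 14.49 in untreated wildtype cells. Zbtb46, a dendritic cell marker, rose in both genotypes (0.67 ± 0.10 in knockout and 0.88 ± 0.15 in wildtype cells; SE). Of 6 macrophage markers Lyz2 fell in knockout cells and 0 passed in wildtype cells (1 with 12 separate samples), of 6 mast cell or basophil markers Prg2 fell in both genotypes, of 7 stromal markers Lum fell in knockout cells, and 0 of 5 lymphocyte markers passed. No neutrophil, monocyte or dendritic cell marker fell under the no-gene median on every array, a lenient limit that Cxcl5 and the lymphocyte markers also met. Camp averaged 5.65 in LPS-treated knockout and 5.86 in LPS-treated wildtype cells, under the no-gene medians of 5.89 to 6.10. The part of these cells in the chemokine responses was not tested.

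The genes whose pattern over the 12 arrays was most like each responsive chemokine were named by the root mean square (RMS) difference of signals centred on each gene's mean, over 18736 genes. For Cxcl10 the nearest was Il1a, for interleukin-1 alpha, at an RMS of 0.146 log2 units, against a range of 5.27 over the arrays for Cxcl10 itself. Rasgef1b, a guanine nucleotide exchange factor, at 0.243 and Tnf at 0.302 followed, and the same genes were among the nearest to Cxcl2 (0.340 and 0.353) after Ccl4, a CC chemokine, at 0.338. The Il1a LPS difference was 4.32 ± 0.28 in knockout and 4.68 ± 0.39 in wildtype cells (SE). The nearest to Cxcl1 were Pvr, an adhesion receptor (0.235), the immediate early gene Nr4a1 (0.293) and Il6 (0.313). The nearest to Cxcl3 were the CC chemokine Ccl2 (0.345), Serpinb2 (0.351) and Eid3 (0.369), and to Cxcl9 Arih2 (0.186), Wsb1 (0.186) and Map3k8 (0.191). These likenesses describe the same 12 arrays from which the LPS responses were taken.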

How the data were processed

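RNA of 12 cultures was hybridised to Affymetrix whole-transcript arrays. The deposited values are log2 signals, which the authors had normalized. How background and arrays were adjusted was not given in the sources used here; limma is the one tool in the submitters' processing notes. The table has 34390 probe sets, of which the platform annotation gives 23521 a single symbol, 1814 several and 9055 none. Where several carried the same gene (1082 genes), the one with the highest mean stood for it, which left 22180 genes, of which 22139 were found in a reference gene table (GRCm38.p6), used for biotype and gene order only. Precision is limited by how many arrays there are.

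The 3 untreated wildtype arrays were averaged to 1 sample, because over genes whose mean exceeded 8 (log2) they were more alike than the 9 other pairs of arrays within a group, so the fit had 10 samples and 6 residual degrees of freedom. This averaging, the 8 genes and the gene lists were chosen with earlier results of these data known. Tests used limma 3.58.1 in R 4.3.3 (lmFit, contrasts, eBayes), all two-sided and adjusted by Benjamini-Hochberg over the 22180 genes, and a single untreated wildtype sample assumed to vary like the others. In simulated data the 3 untreated wildtype arrays were copies of 1 simulated array, and the noise was independent on each other array. There the code recovered most of the larger known changes in the knockout LPS comparison, and recovery in the wildtype comparison is not reported here. Apart from those copies, the noise held no differences shared between arrays.

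Named genes were the 8 chemokines, Arc, for each list up to 5 genes past the threshold or else the 2 with the smallest p, genes lying between chemokine genes, and the 3 genes most alike in pattern (no predicted or small RNA gene). Genes sharing the run of 11 letters, and marker genes given for their levels, were named after their values were seen.

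Replicate numbers were checked for pairing through residual correlations of same-numbered arrays. Those between LPS-treated and untreated knockout arrays (0.381, 0.299 and 0.196), between the LPS groups (given in the report) and between untreated knockout and LPS-treated wildtype cells (0.145, 0.196 and 0.175) all exceeded 0.1. Pairs with untreated wildtype arrays did not meet this. The labels give no pairing. In both LPS groups replicate 1 is also the array of higher small RNA signal. Y-linked signal lay on replicate 2 of both knockout groups but on replicate 1 of LPS-treated wildtype cells. Whether numbers mark true pairs was not tested. Other settings were the replicate block, 12 separate samples, normalization, filters, variance model, terms for or removal of the arrays that stood apart, and each array left out in turn.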

Additional observations from a re-analysis of the deposited data

How the results depend on the processing

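Across 24 other settings, 12 of them leaving out 1 array each, 5 of the 8 chemokine genes passed as higher in knockout cells in each. In wildtype cells 5 passed in 11 settings and 4 in 12 (Cxcl9 lost), and 3 passed without the arrays of low small RNA signal, where Cxcl2 and Cxcl9 were lost; the cause was not tested, beyond the fewer samples of that setting. Leaving out 1 array at a time gave 4 to 5. Cxcl9 in wildtype cells ranged from 0.85 to 1.23 with adjusted p of 0.000785 to 0.152, and its call was also lost with quantile normalization, with all probe sets tested, with only the 2 groups in the fit, with terms for the arrays that stood apart (adjusted p = 0.0553 and 0.0934) and in 7 of the settings that left out 1 array (LPS-treated knockout replicate 3, LPS-treated wildtype replicates 2 and 3, untreated knockout replicates 1, 2 and 3, untreated wildtype replicate 1). Cxcl1, Cxcl3 and Cxcl10 passed in all 24 settings in both genotypes. The comparisons of genotype and of responses called 0 of the 8 in every setting run. With the replicate block 5, 5, 0, 0 and 0 of the 8 genes passed in the 5 comparisons, and no call of a chemokine gene changed. No called value reversed; 54 values that had not passed changed sign, and 874 kept direction and side. Another probe set of the same gene could not be tried, since each has 1, and a fit of only the groups compared does not exist for the difference of responses. A filter on dim genes kept 6 of the 8 genes. Cxcl5 and Cxcl11, at or near background, give no firm level.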
